A study of Mus musculus with 108 samples.

Results

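The genes described here are 9 transcription factors that define hepatocyte identity, *Hnf4a*, *Foxa1*, *Foxa2*, *Foxa3*, *Cebpa*, *Cebpb*, *Onecut1*, *Nr5a2* and *Prox1*, taken by name from the 26089 genes that have a curated RefSeq transcript on chromosomes 1 to 19 and X. The measurement is the chromatin state of their transcription start site (TSS), of the 2 kb on each side of it, of the gene body and of the 50 kb on each side of the gene, in livers of C57BL/6 female mice. SD 3m are 8 mice on standard diet at 3 months of age, with 30 ChIP-seq libraries. SD 12m are 8 mice on the same diet at 12 months, with 29 libraries. CR 12m are 9 mice of 12 months that had received 30% fewer calories from 3 months on, with 29 libraries. The livers were formalin fixed and embedded in paraffin, and SD 6m (6 mice, 20 libraries) is not analysed here.

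The study merged the libraries of each group and gave each 200 bp bin of the genome 1 of 8 states from H3K4me3, H3K27ac, H3K4me1 and H3K27me3. State 1 is an active TSS, state 2 flanks a TSS, states 3 and 4 are active enhancers and state 5 is a poised enhancer. The paper describes states 1 to 5 as varying combinations of H3K4me3, H3K27ac and H3K4me1 without H3K27me3. The combination of each single state is not reported here. State 6 is Polycomb repressed (H3K27me3), state 7 is found in repeats and lamina-associated domains, and state 8 has none of the marks. There is 1 segmentation per group, so differences between groups carry no replicate error and no test was possible. Each value of the factors is therefore set beside the same value over all genes. The groups also differ in the libraries behind each mark, with 7, 8 and 5 H3K4me3 libraries, 8, 7 and 9 H3K27ac libraries, 8, 6 and 9 H3K4me1 libraries and 7, 8 and 6 H3K27me3 libraries in SD 3m, SD 12m and CR 12m. In these groups 6, 5 and 5 mice gave libraries of all 4 marks. The part of these numbers in any difference was not tested. In whole liver, a mark in fewer cells and a weaker mark in every cell cannot be told apart.

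Hepatocytes keep their identity through a small network of transcription factors that bind each other's promoters and enhancers and the genes of the liver's metabolic and secretory functions. FOXA proteins are pioneer factors that can bind nucleosomal DNA, HNF4A is the nuclear receptor on which most of the adult hepatocyte programme depends, and C/EBP proteins, ONECUT1, NR5A2 and PROX1 act with them. Genes for such factors are often covered by broad domains of H3K27ac and H3K4me3 in the cells they define, and by H3K27me3 in cells where they are silent. Of 5 hepatocyte marker genes (*Alb*, *Ttr*, *Apoa1*, *Serpina1a* and *Cps1*), 5 had their TSS in states 1 to 5 in each group, whereas 0 of 4 lymphocyte markers and 0 of 4 genes of other tissues did in any group. Markers of bile duct cells were in states 1 to 5 at 2, 3 and 4 of 5 TSS in SD 3m, SD 12m and CR 12m, those of sinusoidal endothelium at 2, 2 and 4 of 4, those of Kupffer cells at 1, 0 and 0 of 4, and those of stellate cells at 1 of 4 in each group. The part of these other cells in the states of the 9 factors was not tested. *Prox1* is also a gene of lymphatic endothelium and *Onecut1* one of bile duct cells.

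The promoters of the 9 genes differ in their CpG content, and the sequences below, from both ends of its range, are shown so that the states described afterwards can be set beside them. Each line holds the 250 bases before a TSS (RefSeq, GRCm38.p6, which is mm10), 5′ to 3′ on the transcribed strand, with matches to 8 short motifs in capitals, written as reverse complements where the match is on the other strand. The motifs, searched on both strands, are HNF1 GTTAATNNT, FOX TGTTTAC, C/EBP TTGCNNAA, ONECUT ATTGAT, HNF4 CAAAGTC, NR5A AAGGTCA, the TATA box TATAAA and the GC box GGGCGG. *Hnf4a* has an upstream promoter, P2, used in embryonic liver and pancreas, and a downstream promoter, P1, used in adult liver.
Hnf4a P2, chr2:163506607-163506856, + strand: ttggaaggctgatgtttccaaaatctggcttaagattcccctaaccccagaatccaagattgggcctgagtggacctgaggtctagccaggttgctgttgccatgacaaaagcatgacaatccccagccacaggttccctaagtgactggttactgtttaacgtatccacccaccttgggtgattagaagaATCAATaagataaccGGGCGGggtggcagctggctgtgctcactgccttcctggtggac
Hnf4a P1, chr2:163546905-163547154, + strand: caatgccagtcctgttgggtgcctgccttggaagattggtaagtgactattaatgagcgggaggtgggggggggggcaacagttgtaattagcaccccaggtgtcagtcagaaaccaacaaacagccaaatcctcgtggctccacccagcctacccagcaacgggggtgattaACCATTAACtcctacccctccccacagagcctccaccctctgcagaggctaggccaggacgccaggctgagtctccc
Nr5a2, chr1:136960449-136960698, − strand: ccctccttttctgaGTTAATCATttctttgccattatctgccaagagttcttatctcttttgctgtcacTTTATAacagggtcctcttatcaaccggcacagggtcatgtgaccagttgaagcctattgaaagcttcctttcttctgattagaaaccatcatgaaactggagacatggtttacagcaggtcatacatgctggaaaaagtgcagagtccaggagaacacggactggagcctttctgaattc
Foxa1, chr12:57546112-57546361, − strand: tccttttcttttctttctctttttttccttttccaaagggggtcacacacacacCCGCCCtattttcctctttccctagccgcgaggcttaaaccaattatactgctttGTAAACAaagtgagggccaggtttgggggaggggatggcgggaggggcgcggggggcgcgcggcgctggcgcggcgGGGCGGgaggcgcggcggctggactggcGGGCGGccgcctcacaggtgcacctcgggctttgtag
Cebpb, chr2:167688665-167688914, + strand: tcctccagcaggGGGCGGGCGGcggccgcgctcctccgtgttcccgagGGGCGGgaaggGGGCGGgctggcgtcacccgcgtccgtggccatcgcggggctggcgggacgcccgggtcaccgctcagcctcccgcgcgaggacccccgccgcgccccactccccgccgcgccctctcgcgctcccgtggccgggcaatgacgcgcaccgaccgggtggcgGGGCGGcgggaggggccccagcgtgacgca
Onecut1, chr9:74861671-74861920, + strand: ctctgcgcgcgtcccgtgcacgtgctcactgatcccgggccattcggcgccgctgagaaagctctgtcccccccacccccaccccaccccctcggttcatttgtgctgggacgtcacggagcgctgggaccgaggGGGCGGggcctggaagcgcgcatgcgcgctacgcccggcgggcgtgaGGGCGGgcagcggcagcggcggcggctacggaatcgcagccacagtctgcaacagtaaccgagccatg
Cebpa, chr7:35119043-35119292, + strand: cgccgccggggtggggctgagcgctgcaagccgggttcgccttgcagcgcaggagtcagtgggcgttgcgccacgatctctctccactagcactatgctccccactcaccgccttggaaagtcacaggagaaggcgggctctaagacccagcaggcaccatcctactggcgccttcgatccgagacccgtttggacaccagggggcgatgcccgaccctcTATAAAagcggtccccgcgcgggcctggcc
Foxa3, chr7:19023540-19023789, − strand: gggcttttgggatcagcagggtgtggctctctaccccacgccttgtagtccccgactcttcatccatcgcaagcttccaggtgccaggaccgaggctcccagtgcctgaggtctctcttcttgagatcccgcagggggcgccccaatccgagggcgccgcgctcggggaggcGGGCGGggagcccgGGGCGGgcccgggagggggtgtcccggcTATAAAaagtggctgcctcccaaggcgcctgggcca

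The first 3 of these hold few CpG dinucleotides, with 3 in *Hnf4a* P2, 4 in *Hnf4a* P1 and 2 in *Nr5a2*, below the median of 6 over 32851 promoters. The other 5 hold 21 (*Foxa1*), 41 (*Cebpb*), 31 (*Onecut1*), 22 (*Cebpa*) and 18 (*Foxa3*). Of the 6 promoters not shown, those of *Foxa2* hold 6, 20 and 13, those of *Prox1* 20 and 11, and the second of *Nr5a2* 6. As many CpGs as in *Cebpb* were found in 1.09% of all promoters. Over the 21 bins around the TSS, 7 of the 9 genes held 182 to 312 CpGs, against a median of 83 over all genes, and *Hnf4a* P2 and *Nr5a2* held 56 and 40. The CpG counts of those 7 genes were reached by between 0.261% and 8.23% of genes.

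A GC box was found in 9 of the 14 promoters that RefSeq lists for the 9 genes, and in 32.7% of all promoters. The *Cebpb* promoter had 5, of which 2 overlapped, and *Foxa1* had 3. An HNF1 match was found in 3 of 14 (*Hnf4a* P1, *Nr5a2* and the most downstream *Foxa2* TSS), and in 2.27% of all promoters. In *Hnf4a* P1 it began 77 bases before the TSS. A TATA box was found in 5 of 14 and in 12.4% of all promoters, and it began 30 bases before the TSS in *Cebpa*, 36 in *Foxa3* and 34 in *Prox1*, where it lay on the other strand. A FOX match was found in 1 of 14 (*Foxa1* itself) and in 3.17% of all promoters. An ONECUT match was found in 2 of 14 and 6.72%, and a C/EBP match in 1 of 14 and 9.56%. HNF4 and NR5A letters were found in 0 of 14, and in 3.84% and 4.08% of all promoters. A match is a description of the letters and not a site.

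On mm10 the transcripts lie at chr2:163506857-163572907 (*Hnf4a*), chr12:57540628-57546111 (*Foxa1*), chr2:148042877-148046969 (*Foxa2*), chr7:19013283-19023539 (*Foxa3*), chr7:35119293-35121928 (*Cebpa*), chr2:167688915-167690432 (*Cebpb*), chr9:74861921-74889648 (*Onecut1*), chr1:136843584-136960448 (*Nr5a2*) and chr1:190118035-190170827 (*Prox1*). All 9 factors had their TSS in states 1 to 5 in SD 3m, SD 12m and CR 12m, as did 54.7% of all genes in all 3 groups. Fewer of them had it in a promoter state: 4 were in state 1 or 2 in SD 3m (40.1% of all genes), 5 in SD 12m (34.7%) and 6 in CR 12m (30.7%). At the TSS farthest downstream, in place of that of the longest transcript, the counts were 5, 5 and 6. With single segmentations no error can be given for a step of 1 gene. The remaining TSS were in the enhancer states 3 and 4.

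*Cebpa* and *Prox1* had the TSS in state 1 in each group. *Cebpa* encodes C/EBPα, which drives metabolic genes and restrains proliferation of hepatocytes, and *Prox1* encodes a homeobox factor needed for hepatoblast migration and hepatocyte differentiation. State 1 held 13, 17 and 17 of the 21 bins around the *Cebpa* TSS in SD 3m, SD 12m and CR 12m. It held 18, 21 and 21 around that of *Prox1*, where the antisense gene *Prox1os* starts 531 bp downstream and was in state 1 too. The rest of both windows was in state 2 in SD 3m.

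*Foxa2* and *Foxa3* had the TSS in state 1 in SD 3m and SD 12m but not in CR 12m, where that of *Foxa2* was in state 2 and that of *Foxa3* in state 3. FOXA2 acts in lipid metabolism and bile acid homeostasis, and FOXA3 is the FOXA protein found mainly in adult liver. At *Foxa3* the CR 12m state 3 covered 4 bins from the TSS upstream, between state 1 further upstream and state 2 downstream. The state 1 bins upstream of *Foxa3* lie at the TSS of *Sympk*, a divergent gene that starts 838 bp away and was in state 1 in each group.

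*Foxa1* had the TSS in state 4 in SD 3m and SD 12m and in state 1 in CR 12m. In both SD groups the TSS lay in the same 1.0 kb of state 4, chr12:57545401-57546400, with state 1 on both sides of it. In CR 12m state 1 ran through these 5 bins. *Onecut1*, which encodes HNF6, a regulator of hepatocyte and bile duct development, was in state 4 in SD 3m and in state 1 in SD 12m and CR 12m. Its first state 1 bin in SD 3m was the next one downstream of the TSS.

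*Cebpb*, *Hnf4a* and *Nr5a2* had a TSS in an enhancer state. C/EBPβ is an inducible factor of the acute-phase response and of liver regeneration, and its TSS was in state 4 in each group, inside a stretch of state 4 of 1.4 kb in SD 3m, 1.8 kb in SD 12m and 1.4 kb in CR 12m that ended at the same bin downstream, where states 1 and 2 began. The TSS of the noncoding gene *A530013C23Rik*, 1844 bp downstream, lies in those bins and was in state 2 in each group. At 41 CpGs the *Cebpb* promoter was the one with the most CpGs of the 14. The *Hnf4a* TSS of the longest transcript, P2, was in state 3 with all 21 bins around it in SD 3m, SD 12m and CR 12m. *Nr5a2* encodes LRH-1, a receptor that controls bile acid and cholesterol genes. Its TSS was in state 3 in both SD groups and in state 2 in CR 12m, by a shift of 1 bin in the start of the stretch of states 1 and 2.

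**Figure D1:**
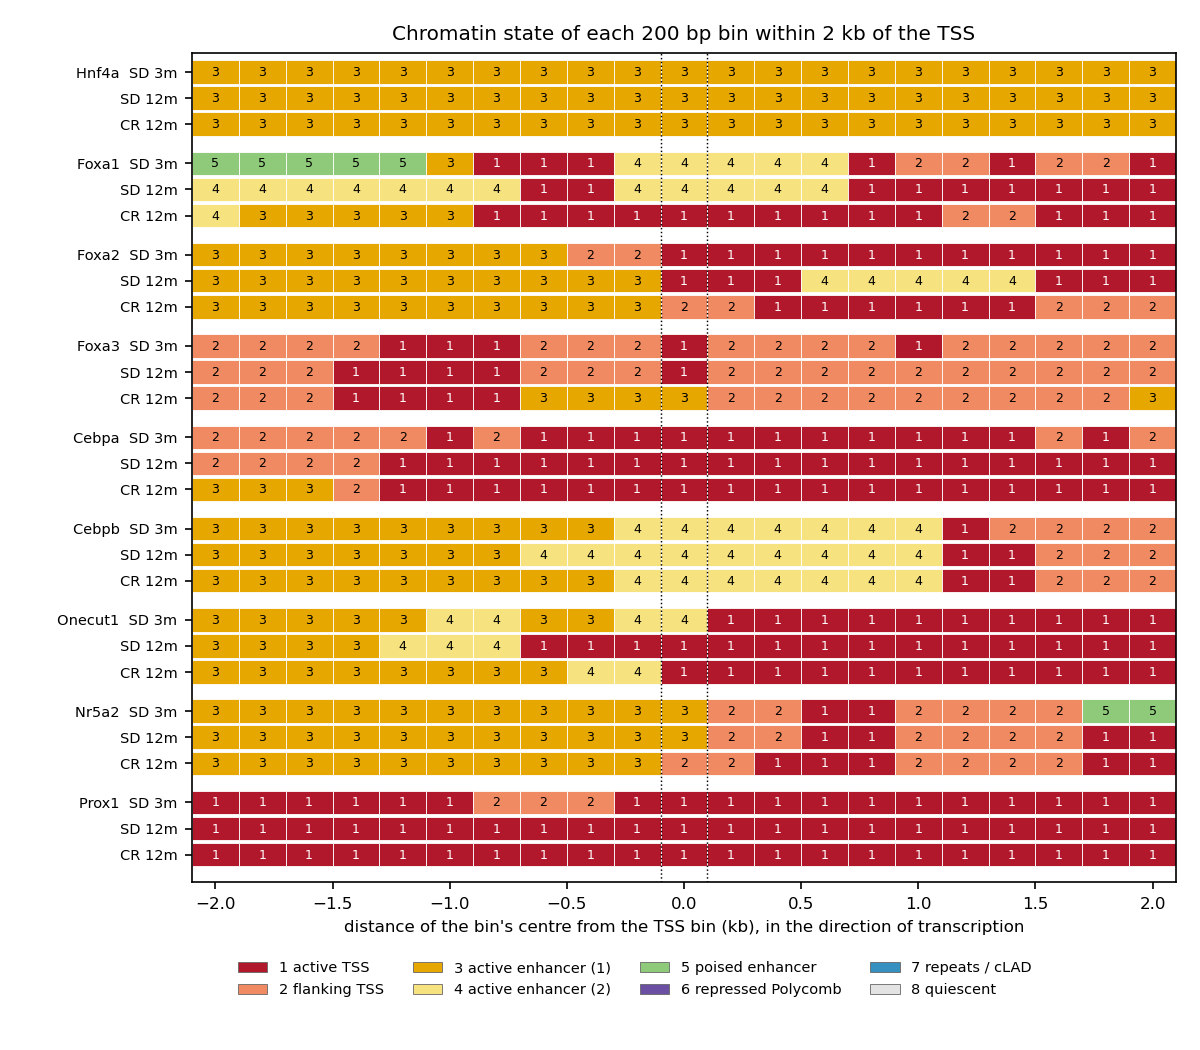
Chromatin state of each 200 bp bin (squares, numbered and coloured by state) within 2 kb of the TSS of the 9 factors, in SD 3m, SD 12m and CR 12m (rows). The x axis is the distance from the TSS bin in kb in the direction of transcription, and dotted lines bound the TSS bin. No square is in states 6, 7 or 8, *Hnf4a* P2 is in state 3 throughout, and state 4 covers the TSS of *Cebpb* in each group.

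The TSS of 1 of 9 factors, *Onecut1*, differed in state between SD 12m and SD 3m, against 32.6% of all genes and 32.4% of the genes whose TSS was in states 1 to 5 in SD 3m. Between CR 12m and SD 12m, 4 differed (*Foxa1*, *Foxa2*, *Foxa3* and *Nr5a2*), against 26.7% of all genes and 27.3% of those in states 1 to 5 in SD 12m. Between CR 12m and SD 3m, 5 differed, against 34.7% and 39.0%. At the TSS farthest downstream these counts were 2 (*Foxa2* and *Onecut1*), 3 (*Foxa1*, *Foxa2* and *Foxa3*) and 3 (*Foxa1*, *Foxa3* and *Onecut1*). These comparisons share segmentations and are not independent of each other. Of the 4 that differed between the diets at 12 months, *Foxa1* and *Nr5a2* were in a promoter state in CR 12m and not in SD 12m, *Foxa3* the reverse, and *Foxa2* was in a promoter state in both.

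RefSeq gives 14 curated TSS for the 9 genes, and *Hnf4a*, *Foxa2*, *Nr5a2* and *Prox1* have more than 1. *Hnf4a* P1, 40298 bp downstream of P2, was in state 1 in each group, within a stretch of states 1 and 2 of 3800 bp in SD 3m, 3600 bp in SD 12m and 4200 bp in CR 12m. *Hnf4a* thus had an enhancer state at P2 and a promoter state at P1, although both are poor in CpG. The other two TSS of *Foxa2*, 1021 bp and 1505 bp downstream of the first, were in state 1 in SD 3m and CR 12m and in state 4 in SD 12m, in a run of 5 bins of state 4 downstream of the first TSS. The second TSS of *Nr5a2*, 6818 bp downstream of the first, was in state 3 in each group, and that of *Prox1* in state 1 in each group.

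**Figure D2:**
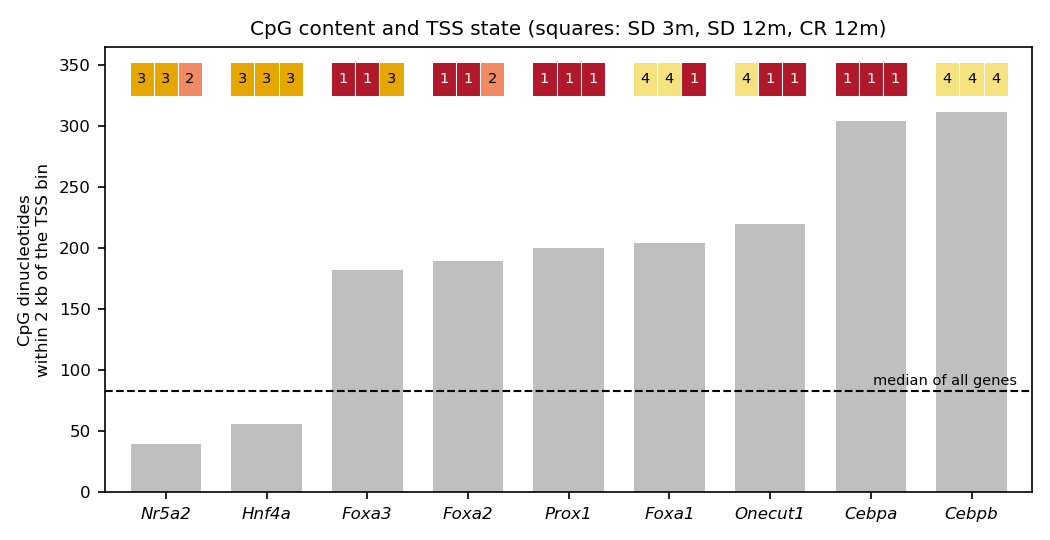
CpG dinucleotides in the 21 bins around the TSS (bars, counts), ordered by count, with the state of the TSS bin in SD 3m, SD 12m and CR 12m as coloured squares above each bar and the median of all genes (83) as a dashed line. *Nr5a2* and *Hnf4a*, with 40 and 56, are the ones below the line, and the 7 others lie between 182 and 312.

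The stretch of states 1 and 2 at the TSS, counted where it held the TSS or came within 2 kb of it, was present at 8 of 9 factors in each group (*Hnf4a* P2 had none), and at 47.8%, 44.0% and 41.7% of all genes in SD 3m, SD 12m and CR 12m. *Prox1* had the longest ones, 9.4 kb in SD 3m, 9.2 kb in SD 12m and 7.0 kb in CR 12m. Stretches as long were found at 0.843%, 0.0537% and 0.0997% of all genes. *Cebpa* had 5.8 kb, 5.2 kb and 5.2 kb, reached by 5.18%, 0.617% and 0.379% of genes. The median over the 8 factors that had one was 4800 bp, 3100 bp and 3700 bp, and that over all such genes 3000 bp, 1800 bp and 1600 bp. Both medians were thus smaller at 12 months than at 3 months.

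*Foxa1* and *Foxa2* differed most between the groups in this length. At *Foxa1* it was 0.6 kb in SD 3m and 0.4 kb in SD 12m, upstream of the TSS, and 4.4 kb across the TSS in CR 12m. At *Foxa2* it was 5.2 kb in SD 3m, 0.6 kb in SD 12m and 3.8 kb in CR 12m. In both genes the short SD 12m value came from bins of state 4 that divided the stretch, and states 1 and 2 began again 1.0 kb further downstream. At *Foxa3* it was 4.4 kb in both SD groups and 1.8 kb in CR 12m, divided by state 3. *Onecut1* had 6.4 kb in SD 3m, starting next to the TSS, and 4.0 kb and 3.6 kb in SD 12m and CR 12m. *Cebpb* had 3.0, 2.0 and 2.6 kb and *Nr5a2* 1.6, 2.2 and 2.2 kb.

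**Figure D3:**
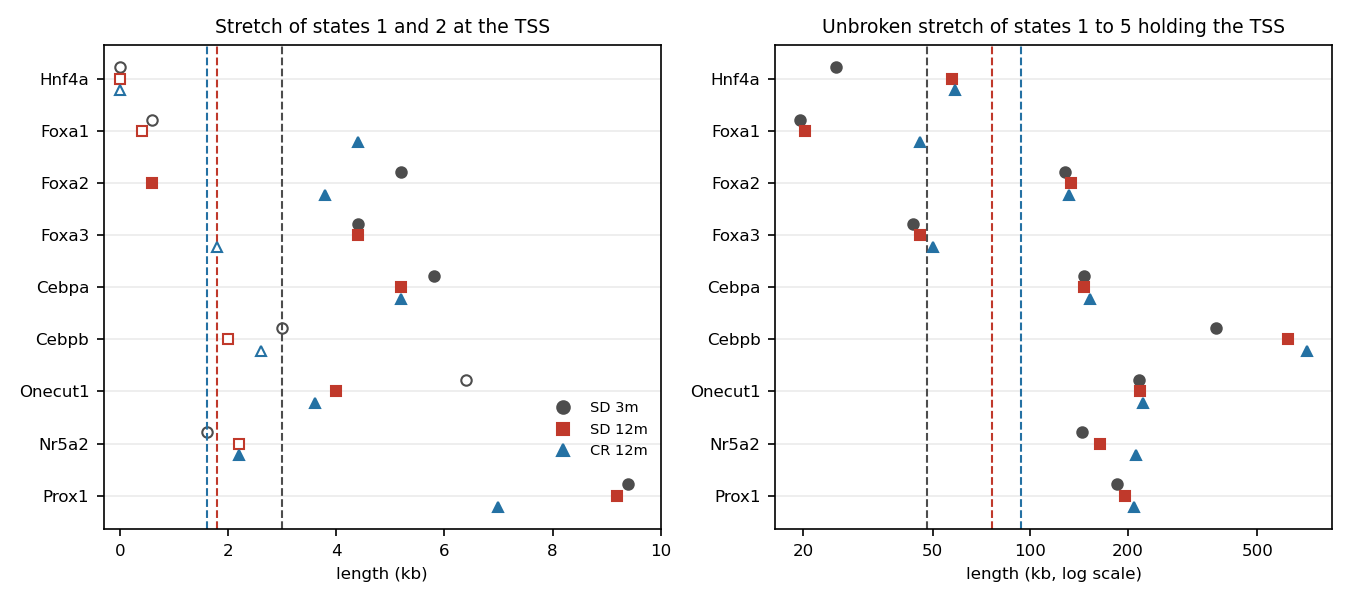
Length in kb of the stretch of states 1 and 2 at the TSS (left, filled where it holds the TSS and open where it does not or is absent) and of the unbroken stretch of states 1 to 5 that holds the TSS (right, log scale) for each factor in SD 3m (circles), SD 12m (squares) and CR 12m (triangles). Dashed lines are the medians over all genes that have such a stretch. *Prox1* has the longest stretches of states 1 and 2. *Foxa1* has short ones in both SD groups, and *Foxa2* has a short one in SD 12m.

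Within 2 kb of the TSS, states 1 to 5 filled all 189 bins of the 9 factors in each group, against 57.8%, 58.0% and 58.4% over all genes. Of the factors' bins in SD 3m, SD 12m and CR 12m, state 1 held 34.9%, 41.3% and 41.8%, against 8.54%, 8.84% and 7.59% over all genes. State 2 held 22.8%, 15.3% and 15.3%, against 20.3%, 9.86% and 8.84%. Both the factors and all genes thus had less state 2 at 12 months. It was lower in SD 12m than in SD 3m at 5 factors and equal at 4. *Foxa3* alone held 16, 16 and 12 of the state 2 bins of these groups, and without it the share was 16.1%, 7.74% and 10.1%.

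Between SD 12m and SD 3m, 19.6% of their bins were in another state, against 37.2% over all genes. Between CR 12m and SD 12m it was 21.7%, against 25.4%, and between CR 12m and SD 3m 24.9%, against 38.2%. The same shares were 23.5%, 24.6% and 29.7% for the other liver factors described later, 26.4%, 21.9% and 32.6% for hepatocyte genes the factors bind, and 24.8%, 10.5% and 31.0% for family relatives, so a share below that of all genes was not particular to the 9 factors. No test of these differences was made. The share for a single gene ranged from 0 at *Hnf4a* P2 to 52.4% at *Foxa1* between SD 12m and SD 3m, and from 0 at *Hnf4a* P2 and *Prox1* to 61.9% at *Foxa1* between CR 12m and SD 12m. *Foxa2* came next in both, with 33.3% and 47.6%. The window around *Hnf4a* P1 was not part of these shares, and its bins did differ between the groups. In SD 3m, SD 12m and CR 12m, state 1 held 9, 11 and 6 of the P1 bins, and state 2 held 3, 0 and 5.

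In the gene bodies, state 3 was the main state of the 5 longest genes and was larger in SD 12m than in SD 3m, and larger again in CR 12m. Its share was 65.6%, 73.1% and 78.5% in *Hnf4a*, 52.9%, 82.9% and 83.6% in *Onecut1*, 81.9%, 90.6% and 92.1% in *Prox1*, 90.8%, 92.7% and 94.9% in *Nr5a2* and 71.2%, 73.1% and 82.7% in *Foxa3*. Over the 9 genes it was 74.6%, 81.8% and 84.9%, against 16.1%, 17.2% and 19.9% over all genes. *Nr5a2* alone gave 586 of the 1446 bins. With each gene weighted alike the shares were 40.6%, 47.5% and 51.0%.

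State 5, the poised enhancer, was the counterpart. In *Onecut1* it held 23.6% of the body at 3 months, 5.0% in SD 12m and 3.57% with caloric restriction. In *Hnf4a* it held 16.3%, 7.85% and 0.906%. Over the 9 genes it was 8.92%, 3.39% and 0.692%, against 9.12%, 5.32% and 4.57% over all genes. The SD 3m bodies held 129 bins of state 5, and 89 of these (69.0%) had state 3 in SD 12m and 116 (89.9%) had it in CR 12m. Over all genes, 17.7% and 28.4% of such bins were in state 3.

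The 4 shortest genes held at most 17.9% of state 3, which was the CR 12m value of *Foxa1*. All 14 bins of *Cebpa* were in state 1 in SD 12m and CR 12m, and 78.6% in SD 3m with the rest in state 2. State 1 held 76.2%, 52.4% and 33.3% of *Foxa2* in SD 3m, SD 12m and CR 12m, and the commonest state of the last was state 2 with 57.1%. *Foxa1* had 21.4% in state 1 in SD 3m and 60.7% and 57.1% in SD 12m and CR 12m. *Cebpb*, at 1518 bp, had 6 of its 9 bins in state 4 in each group. Over the 9 bodies, 12.7% of bins differed in state between SD 12m and SD 3m, against 29.4% over all genes. The shares were 7.61% against 22.5% between CR 12m and SD 12m, and 14.8% against 26.9% between CR 12m and SD 3m. With each gene weighted alike, the first and second of these shares of the factors were 20.1% and 17.3%.

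*Hnf4a* was the one factor with bins outside states 1 to 5 in its body. A stretch of state 8 lay in the first intron of the P2 transcript at chr2:163519001-163525400 in SD 3m, chr2:163519201-163525400 in SD 12m and chr2:163519401-163525400 in CR 12m. The antisense gene *Hnf4aos* also spans it, and the histone marks have no strand. Its downstream end was the same bin in the 3 groups. *Hnf4a* P1 is on the other side of this stretch from P2.

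**Figure D4:**
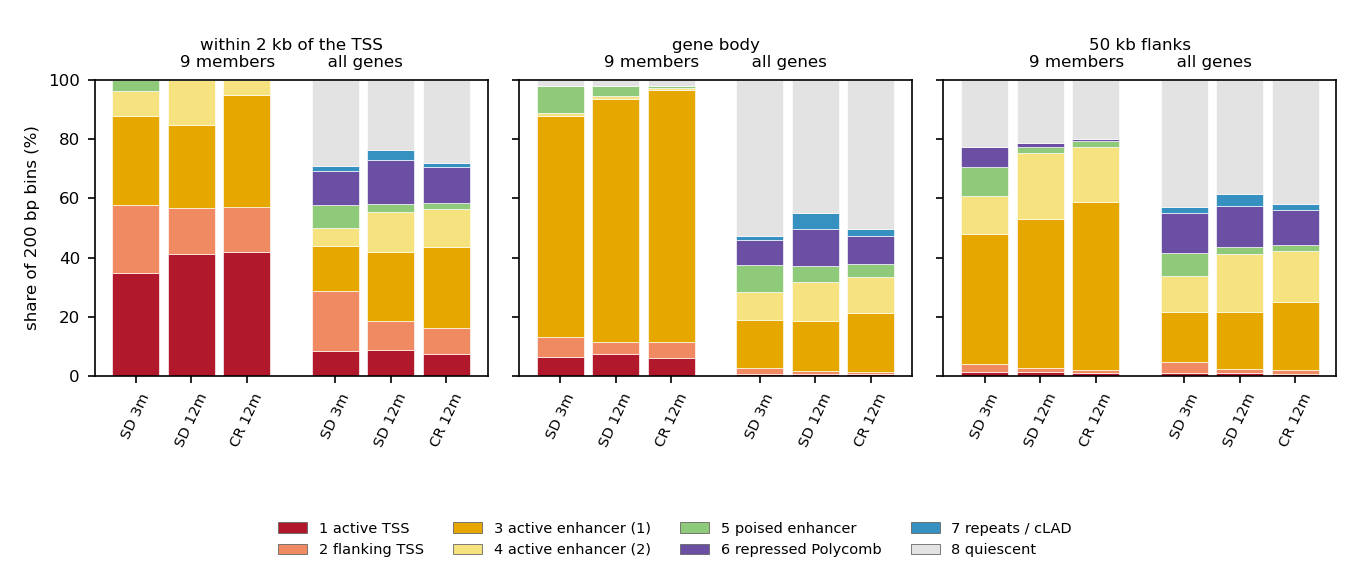
Share of 200 bp bins in each state (stacked bars, %) within 2 kb of the TSS, in the gene body and in the 50 kb flanks, for the 9 factors and for all 26089 genes in SD 3m, SD 12m and CR 12m. States 1 to 5 fill the factors' TSS windows, and state 3 holds 74.6% to 84.9% of their gene bodies against 16.1% to 19.9% for all genes.

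The chromatin around the genes held more enhancer states than that around other genes. Of the 4500 flank bins in SD 3m, SD 12m and CR 12m, states 3 to 5 held 66.3%, 74.7% and 77.4%, against 36.9%, 41.4% and 42.4% over all genes, where a bin near several genes counts for each. The share was larger in SD 12m than in SD 3m at 9 of 9 factors, and larger in CR 12m than in SD 12m at 7. The pooled share over all genes had the same order, so this order was not particular to the factors. How many of all genes had these directions was not counted. At *Cebpa* it was 95.8%, 97.6% and 97.6%, at *Cebpb* 94.4%, 96.4% and 97.2%, and at *Foxa1*, the lowest, 29.8%, 36.0% and 38.6%. *Foxa1* differed between its sides, since 96.0%, 90.0% and 94.8% of the upstream 50 kb were in state 8. The share of flank bins in another state was 27.5% between SD 12m and SD 3m (31.1% over all genes), 16.0% between CR 12m and SD 12m (21.8%) and 32.8% between CR 12m and SD 3m (31.1%). In the same order, it was 29.1%, 18.1% and 35.1% for the other liver factors. For hepatocyte genes the factors bind it was 27.2%, 18.8% and 32.5%, and for family relatives 34.4%, 24.6% and 35.8%.

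State 6, the Polycomb state, was found in the flanks of 4 factors in SD 3m, of 2 in SD 12m and of 1 in CR 12m. How many of all genes had state 6 in their flanks was not counted. Over the flanks of the 9 genes state 6 held 6.98%, 1.40% and 0.556% of bins, against 13.6%, 13.8% and 11.6% over all genes. Most of it lay upstream of *Foxa2*, in 38.8 kb in SD 3m, 9.6 kb in SD 12m and 5.0 kb in CR 12m. The nearest stretch to the *Foxa2* TSS in SD 3m, 25.8 kb at chr2:148053201-148079000 in no curated RefSeq gene, began 6.23 kb upstream of it. *Foxa3* had 10.6 kb, 3.0 kb and 0 kb. The 3.0 kb in SD 12m, chr7:18974201-18977200, was in state 8 in SD 3m and so was not a remainder of the 10.6 kb. *Nr5a2* had 9.4 kb downstream in SD 3m and *Hnf4a* 4.0 kb upstream, and neither had any at 12 months. The SD 3m flanks held 314 bins of state 6, of which 48 (15.3%) had this state in SD 12m too and 227 (72.3%) had state 8. Over the flanks of all genes, 60.0% of such bins had state 6 in SD 12m and 31.4% state 8. The 48 bins of the factors that kept state 6 all lay in 1 stretch upstream of *Foxa2*, chr2:148087401-148097000. The numbers of H3K27me3 libraries were 7, 8 and 6.

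The longest stretch that differed between SD 3m and SD 12m within 50 kb of each gene was the one upstream of *Foxa2*, chr2:148051001-148079200 (28.2 kb), with 129 of 141 bins in state 6 in SD 3m and 104 in state 8 in SD 12m. At *Hnf4a* it was chr2:163483801-163497200 (13.4 kb), over parts of *R3hdml* and *Hnf4aos*. Here 41 of 67 bins were in state 8 in SD 3m and 51 in state 4 in SD 12m. At *Nr5a2* it was chr1:136796601-136806400 (9.8 kb), downstream in no annotated gene, where 47 of 49 bins were in state 6 in SD 3m and 47 in state 8 in SD 12m. At *Foxa3* it was chr7:18985001-18992600 (7.6 kb), over *Nanos2* and part of *Mypop*. *Nanos2* is a germline gene whose TSS was in state 6 in SD 3m and in state 8 at 12 months. For these 4 factors the commonest CR 12m state over the stretch was that of SD 12m. At the 5 other factors these stretches were 1.6 kb (*Cebpa*), 3.4 kb (*Cebpb*), 4.0 kb (*Onecut1*), 4.2 kb (*Foxa1*) and 4.8 kb (*Prox1*), and state 3 or 4 was the commonest in SD 12m.

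Between SD 12m and CR 12m the longest stretches ran from 1.4 kb at *Cebpa* to 6.0 kb at *Onecut1*. At *Onecut1* it was chr9:74816201-74822200, upstream in no curated RefSeq gene. All its 30 bins were in state 8 in both SD groups and in state 4 in CR 12m. At *Foxa3*, chr7:19059201-19064000 within an intron of *Rsph6a* had all 24 bins in state 6 in SD 3m, in state 8 in SD 12m and in state 4 in CR 12m. At *Hnf4a*, *Prox1*, *Cebpa* and *Cebpb* all bins of the stretch were in state 4 in SD 12m and in state 3 in CR 12m. At *Foxa1*, *Foxa2* and *Nr5a2* the commonest state was state 4 at SD 12m and state 5 at CR 12m.

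**Figure D5:**
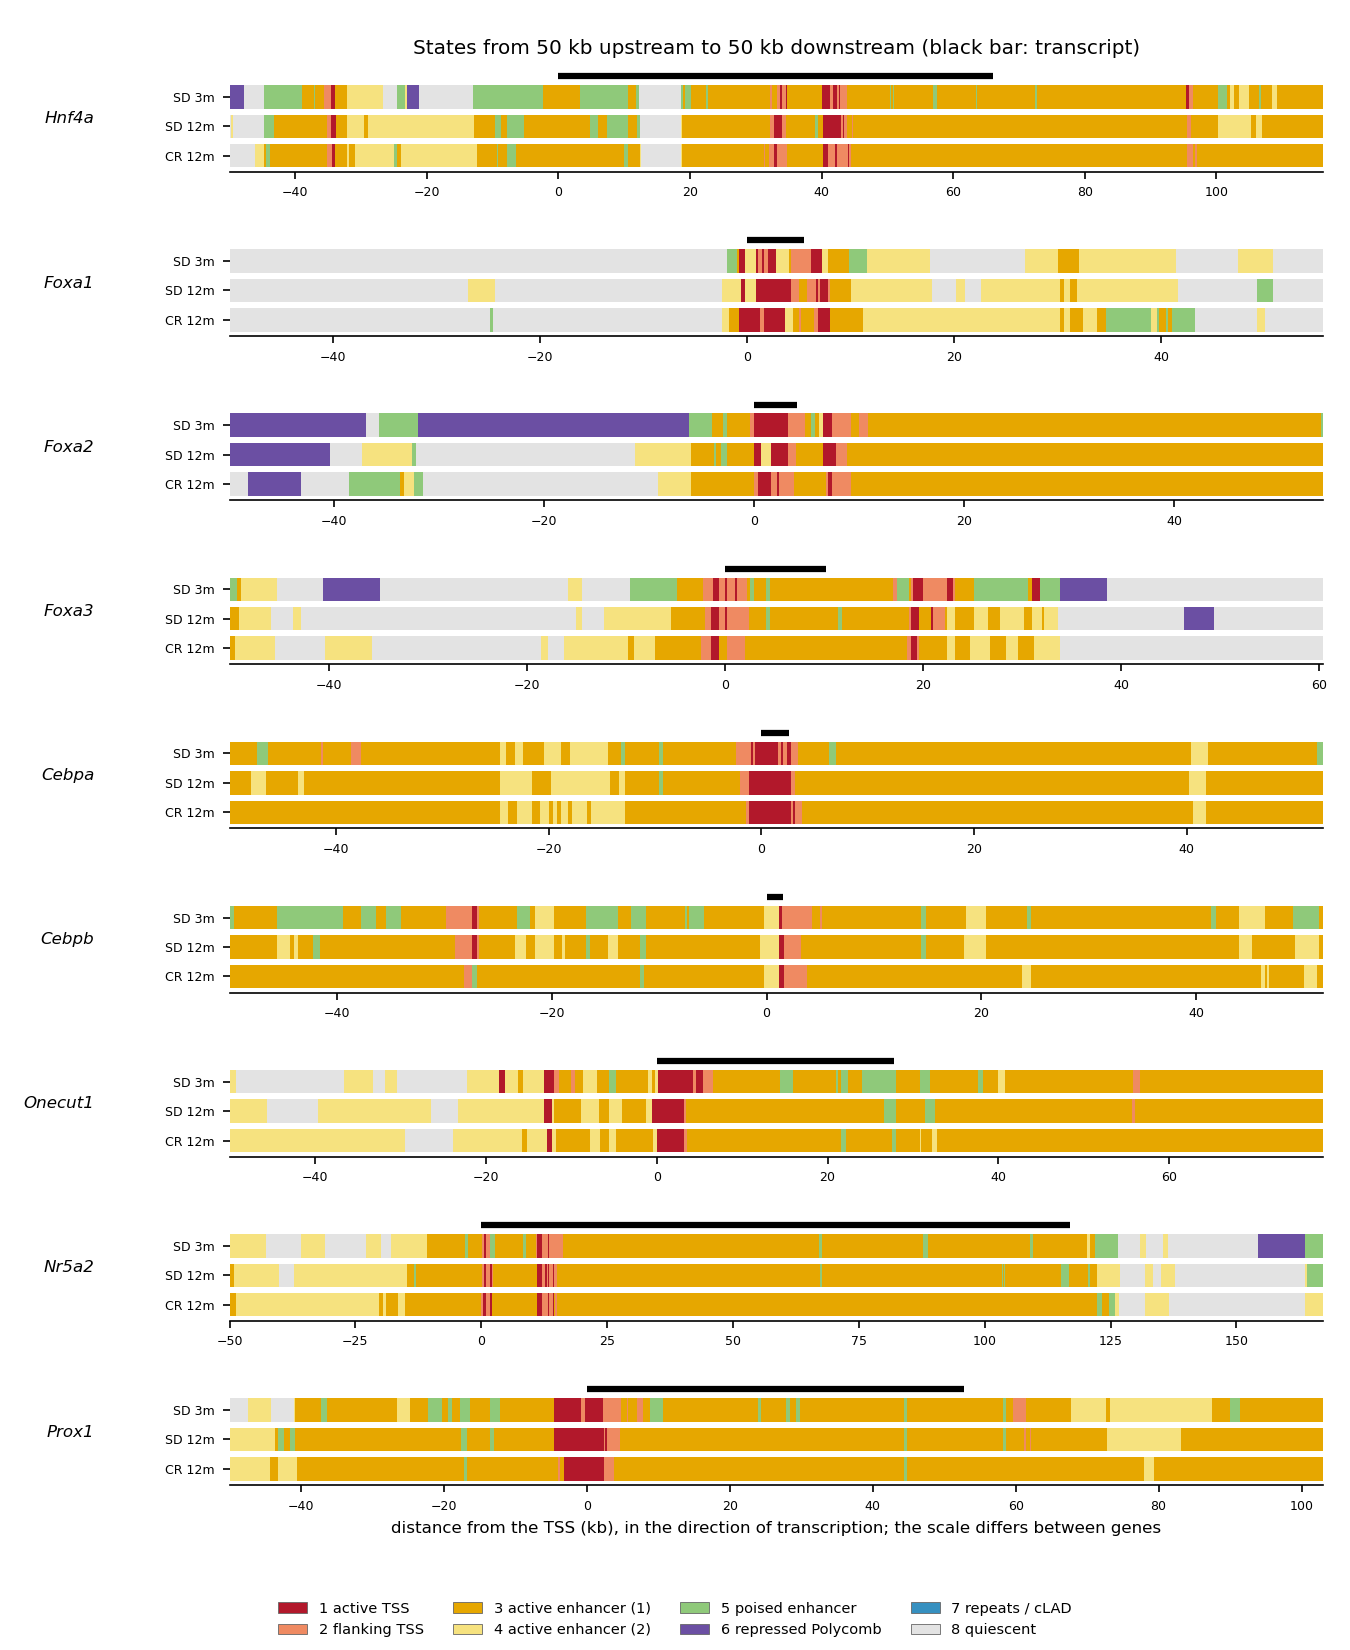
States from 50 kb upstream to 50 kb downstream of each factor in SD 3m, SD 12m and CR 12m, by distance from the TSS in kb (the scale differs between genes), with the transcript as a black bar. The Polycomb state (purple) upstream of *Foxa2* covers 38.8 kb in SD 3m, 9.6 kb in SD 12m and 5.0 kb in CR 12m, and *Hnf4a* has a stretch without marks (grey) in its body in each group.

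The unbroken stretch of states 1 to 5 that holds the TSS was 374 kb long at *Cebpb* in SD 3m, 619 kb in SD 12m and 709 kb in CR 12m. Stretches as long were found at 1.73%, 2.09% and 2.17% of all genes. It was the longest of the 9 in each group, and *Foxa1* had the shortest in both SD groups, 19.6 kb and 20.2 kb, and in CR 12m, 45.6 kb. At *Hnf4a* P2 it was 25.2 kb, 57.2 kb and 58.8 kb, ending downstream at the state 8 stretch of the first intron. *Nr5a2* had 144 kb, 164 kb and 211 kb, *Prox1* 185 kb, 196 kb and 209 kb, and *Onecut1* 217 kb, 218 kb and 222 kb. *Cebpa* and *Foxa2* had 128 kb to 153 kb in each group. The median over the 9 was 144 kb, 146 kb and 153 kb, against 48.2 kb, 76.4 kb and 93.4 kb over all genes with the TSS in states 1 to 5. The median over all such genes thus differed more between the groups than that of the factors. *Hnf4a* P2, *Foxa1* and *Foxa3* lay below the median of all such genes in each group.

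Of 17 other factors of the liver, 13, 12 and 13 had the TSS in state 1 or 2 in SD 3m, SD 12m and CR 12m, and all 17 in states 1 to 5. Of all genes, 40.1%, 34.7% and 30.7% were in state 1 or 2, and 54.7% in states 1 to 5 in all 3 groups. Among all genes in states 1 to 5, state 1 or 2 held 10449 of 15190, 9052 of 15221 and 8004 of 15371. Outside the promoter states in each group were *Tbx3* (state 4), *Creb3l3* (states 4, 4 and 3) and *Nr0b2* (state 3), a repressor of bile acid synthesis that NR5A2 activates. In SD 12m 1 of 17 differed from SD 3m (*Nr1h4*, the bile acid receptor FXR, in states 2, 3 and 2), against 32.6% of all genes. In CR 12m 4 of 17 differed from SD 12m (*Nr1h4*, *Nr2f2*, *Creb3l3* and *Onecut2*), against 26.7% of all genes. Like *Foxa1*, *Onecut2* had its TSS in state 4 in both SD groups and in state 1 in CR 12m.

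A list of 10 relatives from the same gene families was made of genes outside the list of other liver factors, which already held *Cebpd* and *Cebpg* (state 1 in each group) and *Onecut2*. Its counts therefore do not describe the families as a whole. Of the 10, 0 had the TSS in state 1 or 2 in any group, and 5 had it in state 6 in each group, though not the same 5. Over all 26089 genes, 2881, 3887 and 3181 had the TSS in state 6 in SD 3m, SD 12m and CR 12m. *Foxb1*, *Foxd3*, *Foxe1* and *Foxl2* were in state 6 in SD 3m, SD 12m and CR 12m. *Nr5a1*, the relative of *Nr5a2* in steroid-producing tissue, was in states 6, 8 and 8, and *Onecut3* in states 5, 6 and 6. *Prox2* was in state 3 in each group, *Hnf4g* in states 5, 5 and 8, *Foxn1* in states 8, 4 and 4, and *Cebpe*, a factor of granulocytes, in state 8 in each group. Within 2 kb of the TSS, state 6 held 121, 105 and 107 of the 210 bins of the relatives and 0 of the 189 bins of the 9 factors.

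Of 20 hepatocyte genes that the factors are known to bind, 9, 13 and 13 had the TSS in state 1 or 2 in SD 3m, SD 12m and CR 12m. The shares over all genes were 40.1%, 34.7% and 30.7%, and among genes in states 1 to 5 the counts were 10449 of 15190, 9052 of 15221 and 8004 of 15371. In SD 12m 8 of 20 were in another state than in SD 3m, against 1 of the 9 factors and 32.6% of all genes. In CR 12m 8 of 20 differed from SD 12m, against 4 of the 9 factors and 26.7% of all genes. From SD 3m 10 of 20 differed, against 5 of the 9 factors and 34.7% of all genes. Of the 8 that differed between the SD groups, *Apoa1*, *Apoh*, *Pck1* and *Fgb* were in state 4 in SD 3m and in state 1 in SD 12m, as *Onecut1* was. *F9*, which encodes coagulation factor IX, was in states 6, 8 and 4. It was the one gene of this list with a TSS outside states 1 to 5 in any group. *F9* was also the only gene of this list on chromosome X, and the mice were female. The paper describes the Polycomb state as the one with the strongest enrichment on that chromosome. The part of chromosome X in the states of *F9* was not tested. The difference between the lists was not tested.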

How the data were processed

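ChIP-seq libraries of 4 histone marks from formalin-fixed, paraffin-embedded mouse livers were aligned by the authors to mm10 with BWA (version 0.6.2-r126) and handled with SAMtools (0.1.18). The authors merged the libraries of a group and segmented the genome with ChromHMM. The deposited score is a state label from 1 to 8 per 200 bp bin, with 1 segmentation each for SD 3m, SD 12m and CR 12m. The depth of the merged libraries is not given in the sources used here, and neighbouring bins share reads, so no interval is given. A Wilson interval over bins served only as a limit for comparing alternative settings. SD 6m was not analysed here.

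Segmentations of 13168874 bins each were read with Python 3.11.15, numpy 2.4.6 and pandas 2.3.3, and plotted with matplotlib 3.10.9. Each gene was placed by its longest curated RefSeq transcript on chromosomes 1 to 19 and X. The TSS window was the TSS bin with 10 bins on each side, and a flank was 250 bins. The scripts were tested on simulated data. All 9 factors were named whatever their values. Genes of other lists were named where they differed from most of their list or a result turned on them. Stretches were named as the longest difference per gene. One gene of a list is not reported here. The factors and lists were chosen with earlier results of these data known. Alternatives were the TSS farthest upstream and, added after seeing the data, farthest downstream, 5 bins around the TSS, merged states, other window widths, equal weights and leaving out each gene.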

Additional observations from a re-analysis of the deposited data

How the results depend on the processing

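The values rest on 1 segmentation per group, so no error between mice can be given, and the depth behind a state is unknown. No paired analysis was possible because the results come from no test and each group is 1 segmentation of merged libraries. The counts of factors with the TSS in state 1 or 2, and of those whose TSS state differed, stayed within 1.5 times with the 5 bins around the TSS and with merged states. The curated TSS farthest upstream was the main one at all 9 factors, so that setting changed nothing by construction. At the TSS farthest downstream, chosen after seeing the data, 2 factors differed between SD 12m and SD 3m and 3 between CR 12m and SD 3m, in place of 1 and 5. Of 61 alternative values that kept all 9 factors, 36 stayed within a limit and 25 moved beyond it. The 36 include all values at the TSS farthest upstream, which could not move. The limit was 1.5 times for a count and the 95% Wilson interval of the main value for a share. That interval takes bins as independent, which neighbouring bins are not, so it measures no error. With 1 kb on each side of the TSS, state 2 held 17.2% in SD 3m and 10.1% in CR 12m. Without the first 2 kb of the body, state 3 held 78.6%, 86.4% and 89.6% in SD 3m, SD 12m and CR 12m. With equal weights it held 40.6%, 47.5% and 51.0%, and 20.1% (SD 12m against SD 3m) and 17.3% (CR 12m against SD 12m) of body bins were in another state. States 3 to 5 held 73.7%, 82.3% and 85.2% of 20 kb flanks, 58.5%, 65.1% and 68.9% of 100 kb flanks and 69.7%, 78.5% and 80.8% of flanks without other genes. Between SD 12m and SD 3m the share of flank bins that differed was 29.3% at 20 kb, 25.9% at 100 kb and 26.1% without other genes, and between CR 12m and SD 12m 18.7% at 100 kb. The cause was not tested. Each of these settings kept the order of the groups in state 3 of the body and in states 3 to 5 of the flanks.

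Leaving out each factor in turn, state 2 within 2 kb held 16.1% to 25.6%, 7.74% to 17.3% and 10.1% to 17.3% in SD 3m, SD 12m and CR 12m. Window bins in another state made up 15.5% to 22.0% (SD 12m against SD 3m) and 16.7% to 24.4% (CR 12m against SD 12m). State 3 of the body held 63.5% to 77.2%, 74.4% to 84.4% and 78.0% to 86.7% in SD 3m, SD 12m and CR 12m, and body bins in another state 10.6% to 17.0% and 5.92% to 10.7%. States 3 to 5 of the flanks held 62.6% to 70.9%, 71.9% to 79.6% and 74.8% to 82.2%, and flank bins in another state 25.9% to 29.7% and 15.3% to 17.0%.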
